A study of Mus musculus with 2 samples.

Results

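Arc, Npas4, Homer1, Bdnf, Crem, Rgs2 and Nptx2 are 7 genes known for a fast rise of their mRNA in active neurons, and they were followed here in mouse fibroblasts given serum. They were taken by name, as all non-control probes on the arrays that carry one of these symbols. This gave 15 probes for the 7 genes, out of 35777 probes for 28233 named genes. The accession of 15 of the 15 probes belongs to the same symbol in RefSeq.

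The cells were an immortalized mouse embryonic fibroblast (MEF) line, Rosa26ERT2 Cre: THOC5 (flox/flox), on a C57BL/6 x B6:129 Ola background. Both conditions therefore carried the floxed Thoc5 alleles and a Cre recombinase that tamoxifen switches on. Control cells, labelled wildtype, had no tamoxifen, and THOC5-depleted cells, labelled THOC5 knockdown, had it for 2 days per the labels. Figure legends and the chromatin precipitation methods of the study also give 2 days, whereas its cell culture methods describe a shorter exposure followed by growth medium. Each condition was measured on 1 dual-color Agilent array, with unstimulated RNA in Cy3 (green) and RNA after 1 h of fetal calf serum in Cy5 (red), in the same dye order on both arrays. The study made the comparison to ask how far serum-responsive genes need THOC5, a subunit of the THO complex that couples transcription to mRNA processing and export. All cells are of 1 line, the control cells never saw tamoxifen, and serum and dye change together, so tamoxifen or array and THOC5 loss, and dye and serum, cannot be told apart.

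In neurons, calcium that enters during firing activates kinases and the transcription factors CREB, SRF and MEF2, which switch on a first wave of genes with no need for new protein. Part of that wave encodes transcription factors, such as Npas4, and another part encodes proteins that act at the synapse, such as Arc and the short form of Homer1. Growth factors in serum reach CREB and SRF through related kinases in fibroblasts, so many of these genes are also immediate early genes outside the nervous system.

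Only part of the group answered serum in these cells. Arc, Npas4 and 3 of the 5 probes of Homer1 had a serum ratio (Cy5 over Cy3 processed signal) of 2 or more in control cells. Bdnf and Crem stayed under 1.5-fold on each array, Rgs2 had a ratio under 1 in control cells, and Nptx2 was not well above background there. A name for all 7 as genes induced by serum in fibroblasts is thus not borne out by these arrays. In THOC5-depleted cells Arc and Npas4 still passed 2-fold, and no Homer1 probe did. With 1 array per condition, differences between conditions carry neither a p-value nor a standard error, and the errors below are the scanner software's own estimate of the technical error of a log ratio.

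At the level of genes, with the brightest probe standing for each, 2 of the 6 members measured in control cells had a ratio of 2 or more, against 2.36% of the 17746 named genes with both signals well above background. In THOC5-depleted cells it was 2 of 7 members, against 0.865% of 17810 genes. At the level of probes, 5 of 11 member probes passed 2-fold in control cells, against 2.31% of 22362 probes, and 2 of 12 in THOC5-depleted cells, against 0.731% of 22439. No member probe had a ratio of 0.5 or less on either array. The fold reduction, which is the control ratio divided by the THOC5-depleted one, reached 2 for 1 of 6 member genes, against 1.16% of 17192 genes, and for 4 of 11 member probes, against 1.13% of 21689 probes. The 5 probes raised in control cells and the 4 with this fold reduction each include 3 probes of Homer1. Probes of the same gene are not independent members, and the counts by probe were chosen after seeing the data. The median log2 serum ratio of the members, 0.39 in control and 0.22 in THOC5-depleted cells, stood beside -0.02 and -0.01 over all named genes measured.

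**Figure D1:**
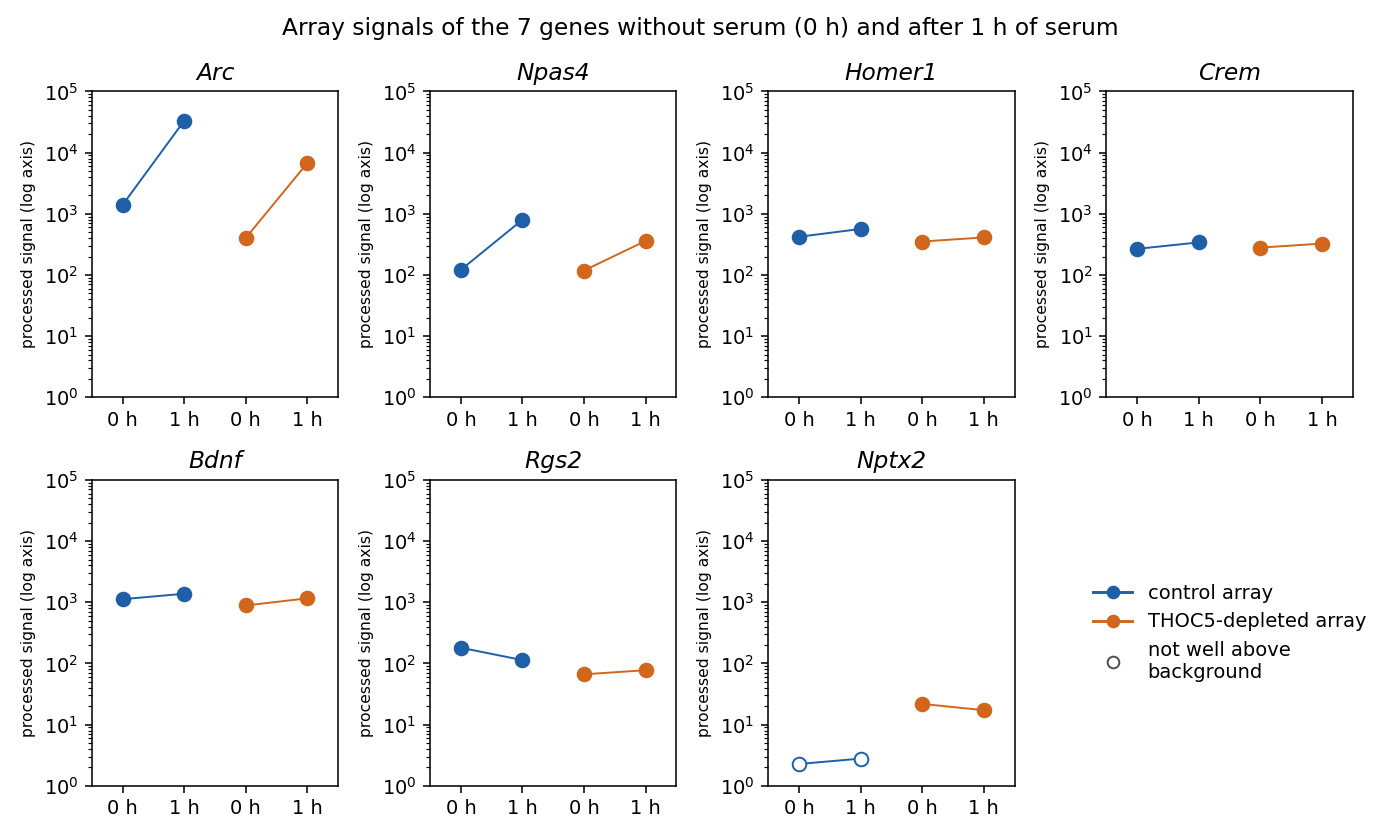
Processed signal of the brightest probe of each of the 7 genes on a log axis, without serum (0 h, Cy3) and after 1 h of serum (1 h, Cy5). Each point is 1 channel of 1 array, blue for control and orange for THOC5-depleted, and open points are not well above background: Arc and Npas4 climb on both arrays, Rgs2 goes from 181 to 113 in control cells, and Nptx2 is open in control cells only. Signals are not scaled between arrays, and heights of different genes are not comparable.

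The arrays themselves set the frame for these values. Thoc5 had signals of 4808 (Cy3) and 3047 (Cy5) in control cells and 546 and 455 in THOC5-depleted cells, which after scaling between arrays was 7.08-fold lower without serum and 5.38-fold lower with it. Whether its probe lies in the floxed part is not given in the sources used here. Between 62.1% and 64.4% of 43020 spots per array were well above background in a channel, no member spot was marked as an outlier or saturated, and the median SD between spots of one probe was 0.03 (log2) on each array. The log2 serum ratios of all measured probes spread less on the THOC5-depleted array, with a median absolute deviation of 0.140 against 0.194 on the control array. Fibroblast markers were bright (11 or 12 of 12 above background, summed signal 349122 to 474262). Their unscaled sum was lower on the THOC5-depleted array (390729 against 474262 in Cy3), which was dimmer as a whole, with a 75th percentile of 862 against 1063 in that channel. Scaled between arrays, the unstimulated log2 signal of the 11 markers above background on both arrays differed by -1.28 (Pdgfra) to 0.25 (Thy1) in THOC5-depleted minus control cells, with Col3a1 at -1.13, Dcn at -0.97, Vim at 0.02 and Fn1 at 0.08. Lum was above background in control cells only. Of 13 neuron markers, 6 to 9 were above background in both channels of an array, with a summed signal of 11351 to 12627. Snap25 (4952 to 6952) and Tubb3 (3534 to 5548) held most of that sum. Syn1, Elavl4, Dlg4 (101 to 131) and Camk2a (66.3 to 83.7) were also above background in the 4 channels. Syt1, Grin1 and Stmn2 were above it in some channels. Slc17a7, Gad1 and Gad2, which define excitatory and inhibitory neurons, and Nefl were above it in no channel. Glia markers summed to 600.3 to 883 and epithelial, endothelial and blood cell markers to 156 to 213. The part of these marker differences in the results was not tested. In bulk RNA, fewer cells of a type and less RNA per cell cannot be told apart.

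Arc encodes a capsid-like protein of the postsynaptic density that drives the removal of AMPA receptors from the synapse. Its probe (A_55_P2021810, mm9 chr15:74499592-74499651, minus strand) had the highest serum ratio of the group. In control cells the signal was 1406 without serum and 33258 with it, a ratio of 23.7 (17.0 to 32.9 within the scanner error). In THOC5-depleted cells it was 404 without serum and 6780 with it, a ratio of 16.8 (12.4 to 22.7). These ratios ranked 7 among 22362 probes in control cells and 6 among 22439 in THOC5-depleted cells.

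The Arc response was thus among the strongest on both arrays, while its signals were lower on the THOC5-depleted array in both channels. After scaling between arrays the unstimulated signal was 2.79-fold lower and the stimulated signal 3.93-fold lower. The log2 fold reduction of the ratio was 0.50 with a combined scanner error of 0.64, so it did not exceed that error, and its sign turned to -0.89 when the log ratios of both arrays were given the same spread. Among 17191 other genes with all signals above background, those nearest to Arc in the plane of the log2 ratios were Fosb (ratios of 19.8 and 19.1, distance 0.32), Egr1 (15.4 and 15.7, distance 0.63) and Dusp2 (43.3 and 19.7, distance 0.90). Fosb and Egr1 are immediate early transcription factors and Dusp2 is a phosphatase of MAP kinases.

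Npas4 is a transcription factor of the bHLH-PAS family that in neurons is switched on by calcium entry and governs inhibitory synapses and Bdnf. Its probe (A_55_P1975215, mm9 chr19:4984356-4984415, minus strand) had a signal of 121 without serum and 799 with it in control cells. In THOC5-depleted cells the signals were 118 and 360. The unstimulated signals of the arrays were alike, and the stimulated one was lower in THOC5-depleted cells.

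The serum ratio of Npas4 was 6.58 (5.25 to 8.24 within the scanner error) in control cells and 3.05 (2.56 to 3.63) in THOC5-depleted cells. Its fold reduction was 2.16, and the log2 value of 1.11 exceeded the combined scanner error of 0.41. Scaled between arrays, the unstimulated signal was 1.15-fold higher and the stimulated signal 1.88-fold lower in THOC5-depleted cells. The log2 fold reduction was 0.99 with normexp and loess, just under 2-fold, and the fold reduction was 1.34 when both arrays were given the same spread of log ratios. Nearest to Npas4 were Nppb (ratios of 6.13 and 3.23, distance 0.13), which encodes a natriuretic peptide, Tnfaip3 (5.70 and 3.15, distance 0.21), a brake on NF-kappaB, and Eid3 (5.74 and 3.25, distance 0.22).

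The Npas4 probe holds the letters of the canonical polyadenylation signal, AATAAA, which marks where a transcript is to be cut and given its tail. The study turned on the making of 3' ends, so the stretch of the probe around that signal is shown, with the signal in capitals (mm9 chr19:4984362-4984391, minus strand, from the deposited probe sequence):
Npas4 probe, 30 bases: agccaactttatAATAAAgtccagtttgcc
These letters are held by 12.6% of 39429 probes of the array, and by 1 of the member probes. A match is a description of the probe and not a measurement of where this mRNA ended.

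Homer1 encodes scaffold proteins that tie metabotropic glutamate receptors to Shank and to the IP3 receptor. The long form (L) carries a coiled coil through which the scaffold assembles. The short form (S, also called Homer1a) is made when the transcript ends early inside an intron; it lacks the coiled coil and acts as the activity-induced antagonist of the long form. The 5 probes of Homer1 lie along chromosome 13 on the plus strand in mm9. In order from the 5' side, 3 of them are listed in the files for transcript S and 2 for transcript L. No mm9 annotation was used here, so exons and untranslated parts are not assigned to them.

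The sequences of 4 of the probes are shown because the serum response differed between them, read from the deposited files in the 5' to 3' direction of the mRNA:
Homer1 A_55_P2122789, listed for S (chr13:94116595-94116654): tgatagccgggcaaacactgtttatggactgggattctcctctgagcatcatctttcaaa
Homer1 A_55_P1982122, listed for S (chr13:94125924-94125983): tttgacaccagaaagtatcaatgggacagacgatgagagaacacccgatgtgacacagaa
Homer1 A_55_P1982121, listed for S (chr13:94126009-94126068): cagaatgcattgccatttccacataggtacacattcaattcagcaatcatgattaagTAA
Homer1 A_66_P104134, listed for L (chr13:94157507-94157566): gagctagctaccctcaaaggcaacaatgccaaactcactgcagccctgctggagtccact
The capitals mark the stop codon TAA in the last 3 bases of A_55_P1982121, at the end of a reading frame that is open along the rest of that probe. This probe thus holds the end of the short reading frame. The files list up to 4 accessions per probe, so the other 2 probes listed for S may also match the long transcript, with which the short form shares its 5' part. Of the 3 probes listed for S, only A_55_P1982121 was tied here to the short form by its sequence. The names S probes and L probes below follow the listing alone, so they compare probes and not measured forms.

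In control cells the 3 probes listed for S had serum ratios over 2, although that of A_55_P2122789 was 1.91 with normexp and loess. A_55_P2122789 went from a signal of 94.2 to 220.4 (ratio 2.34), A_55_P1982122 from 75.7 to 208 (2.75) and A_55_P1982121, at the end of the short form, from 81.6 to 264 (3.23, or 2.70 to 3.87 within the scanner error). The probes listed for L did not reach 2-fold in control cells. A_66_P104134 had a signal of 85.7 in each channel (ratio 1.00), and A_55_P1982111 (chr13:94174815-94174874) went from 421 to 565 (ratio 1.34). The scanner errors of the S and L probes did not overlap, since the log2 ratios were 1.23 to 1.69 for S, with errors of 0.24 to 0.26, and 0.00 and 0.42 for L, with errors of 0.21.

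In THOC5-depleted cells this difference between the probes was not seen. A_55_P2122789 had signals of 130.0 and 116 (ratio 0.890), A_55_P1982122 of 103 and 96.4 (0.933) and A_55_P1982121 of 74.2 and 77.9 (1.05, or 0.901 to 1.22 within the scanner error). The probes listed for L had signals of 94.4 and 92.3 (ratio 0.978) and of 352 and 411 (1.17). All 5 log2 ratios lay between -0.17 and 0.22, and of these the one of A_55_P1982111 (0.22) exceeded its scanner error (0.21).

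The fold reductions of the S probes were 2.63, 2.94 and 3.08 from the 5' side, and those of the L probes 1.02 and 1.15. The S probes ranked 101, 71 and 61 among 21689 probes by fold reduction. Their log2 values of 1.39, 1.56 and 1.62 exceeded combined scanner errors of 0.32 to 0.34, and stayed at 1.04 or more under every alternative run. The highest and lowest of the Homer1 probe ratios were 3.23-fold apart in control cells and 1.31-fold apart in THOC5-depleted cells. Ratios 2-fold or more apart were seen for 1.96% of 3875 genes with several probes above background in control cells, and for 0.722% of 3878 in THOC5-depleted cells. The gene is not among those counted as raised above, because its brightest probe is A_55_P1982111.

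**Figure D2:**
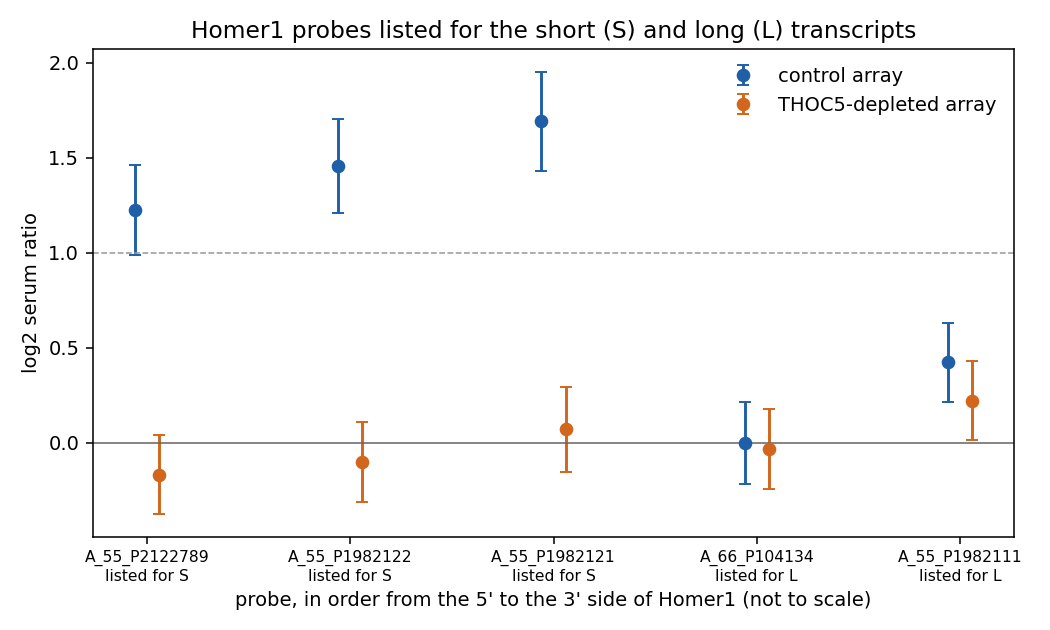
The log2 serum ratio (1 h serum over unstimulated) of the 5 Homer1 probes, in order along the gene, on the control array (blue) and the THOC5-depleted array (orange), with bars for the scanner error of 1 spot. The dashed line is 2-fold: the 3 probes listed for the short transcript lie at 1.23 to 1.69 in control cells and at -0.17 to 0.07 in THOC5-depleted cells, and the 2 listed for the long transcript stay under the line on both arrays.

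Scaled between arrays, the stimulated signal of the S probes was 1.66-fold, 1.90-fold and 2.98-fold lower in THOC5-depleted cells from the 5' side. The unstimulated signal was 1.58-fold and 1.55-fold higher at the upstream S probes and 1.03-fold higher at the end of the short form. The log2 difference between arrays thus fell from the 5' side in both channels, from 0.66 to 0.05 without serum and from -0.73 to -1.58 with it. Part of the fold reduction at the upstream probes thus came from the unstimulated channel. The genes nearest to the probe at the end of the short form were Ctrl (ratios of 3.31 and 1.07, distance 0.04) and Bdkrb2 (3.14 and 1.03, distance 0.05). Nearest to A_55_P1982122 were Bcl2l11, LOC639910 and Has2 (distances 0.04 to 0.14), and nearest to A_55_P2122789 were Hmga2-ps1, Prss46 and Prr7 (distances 0.01 to 0.15).

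Crem encodes activators and repressors of cAMP-responsive genes, among them the inducible repressor ICER, which starts from an internal promoter. It had 3 probes, and neither measured probe reached 1.5-fold. A_52_P460957 went from 267 to 341 in control cells (ratio 1.28) and from 280.1 to 326 in THOC5-depleted cells (1.16). A_51_P423976 went from 158 to 195 (ratio 1.23) and from 122 to 156 (1.27). The log2 fold reductions of 0.13 and -0.05 were smaller than their combined scanner errors of 0.29 and 0.30. The third probe, A_55_P2044257, listed for variant 7, was not well above background in any channel, so the arrays give no value for that transcript.

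Bdnf encodes the neurotrophin that signals through the receptor TrkB. Its only probe (A_55_P2036303, mm9 chr2:109566961-109567020, plus strand) was well above background in the 4 channels. The signal was 1125 without serum and 1381 with it in control cells (ratio 1.23), and 888 and 1161 in THOC5-depleted cells (1.31). The log2 fold reduction of -0.09 was under its combined scanner error of 0.29. Scaled between arrays, its signal was 1.04-fold lower without serum and 1.02-fold higher with it in THOC5-depleted cells. Bdnf was thus present in these cells with little difference between the 4 RNAs.

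Nptx2, also called Narp, is a secreted pentraxin that gathers AMPA receptors at synapses. Its probe A_52_P187058 (mm9 chr5:145317905-145317964, plus strand) had signals of 2.27 and 2.78 in control cells, which were not well above background, so no ratio is given there. In THOC5-depleted cells the signals were 21.8 and 17.2, above background in both channels, with a ratio of 0.789 (0.633 to 0.984 within the scanner error). The THOC5-depleted signals were at least 2.17-fold higher without serum and at least 1.37-fold higher with it than in control cells, taking for the control array the lowest signal called well above background. The other Nptx2 probe, A_55_P2147696 (chr5:145317727-145317786), was not well above background in any channel, with signals of 2.30 to 2.85. The probes of Nptx2 thus disagree, and the signals of the brighter one lie near the lowest that the software calls well above background in THOC5-depleted cells (11.2 in Cy3).

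Rgs2 speeds up the shut-off of Gq-coupled receptor signalling by acting on G protein alpha subunits. Its probe A_55_P2109857 (mm9 chr1:145848830-145848889, minus strand) had, in control cells, a log2 ratio below 0, unlike the other member probes measured there. In control cells the signal was 181 without serum and 113 with it, a ratio of 0.627 (0.540 to 0.729 within the scanner error). In THOC5-depleted cells the signals were 66.5 and 77.6, a ratio of 1.17 (1.00 to 1.36).

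The log2 ratio of Rgs2 was thus -0.67 on the control array and 0.22 on the other, a difference of -0.89 that exceeded its combined scanner error of 0.31. It was the unstimulated channel that differed most, 2.40-fold lower in THOC5-depleted cells after scaling between arrays, against 1.29-fold lower with serum. The other Rgs2 probe, A_52_P378968 (chr1:145847227-145847286), was not well above background in any channel.

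**Figure D3:**
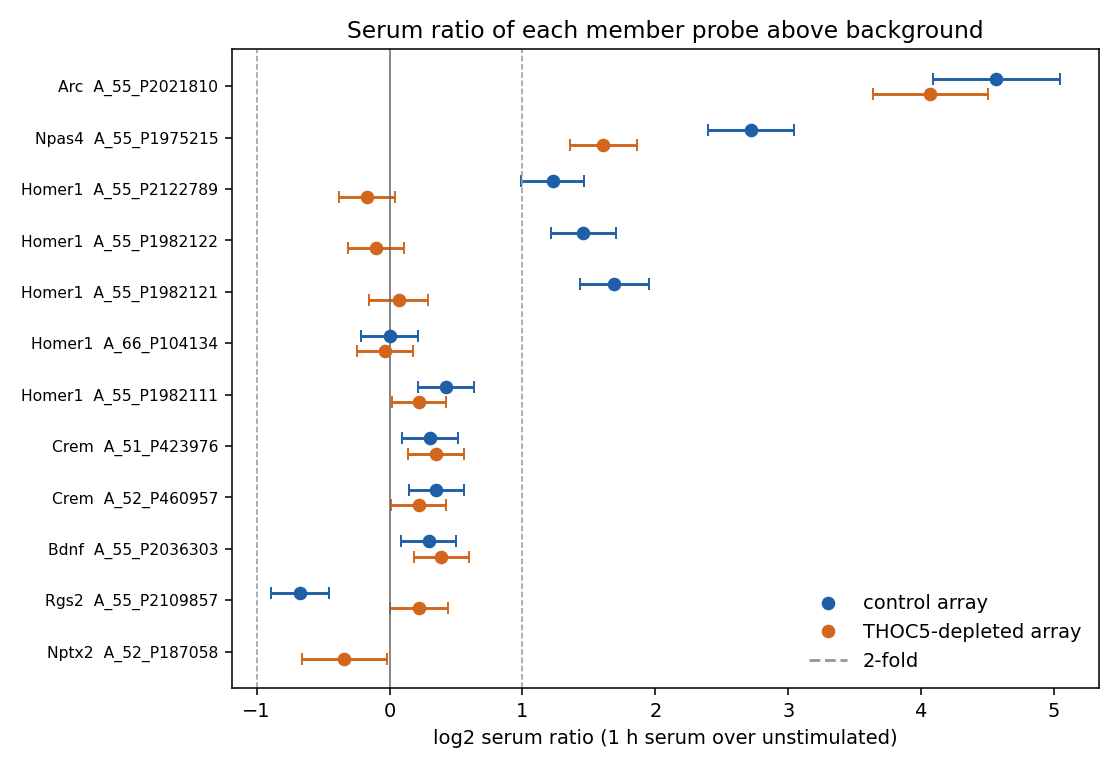
The log2 serum ratio of each member probe with both signals well above background, blue for control and orange for THOC5-depleted, with bars for the scanner error of a spot and dashed lines at 2-fold. Arc (4.56 and 4.07) and Npas4 (2.72 and 1.61) lie beyond 2-fold on both arrays, the 3 S probes of Homer1 on the control array only, and Crem, Bdnf, Rgs2 and Nptx2 on neither.

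Between arrays, the unstimulated signal was 2-fold or more lower in THOC5-depleted cells for 2 member genes, Arc and Rgs2, against 3.3% of 19051 genes. The stimulated signal was 2-fold or more lower for 1 member gene, Arc, against 3.13% of 18665 genes. Npas4, at 1.88-fold lower with serum, was just short of that limit, and the end of the short form of Homer1, at 2.98-fold, was beyond it but is not the brightest probe of its gene. Arc was lower in both states, Npas4 and the S probes of Homer1 with serum only, and Rgs2 mainly without serum. These differences compare signals of separate arrays and are less precise than ratios within an array.

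**Figure D4:**
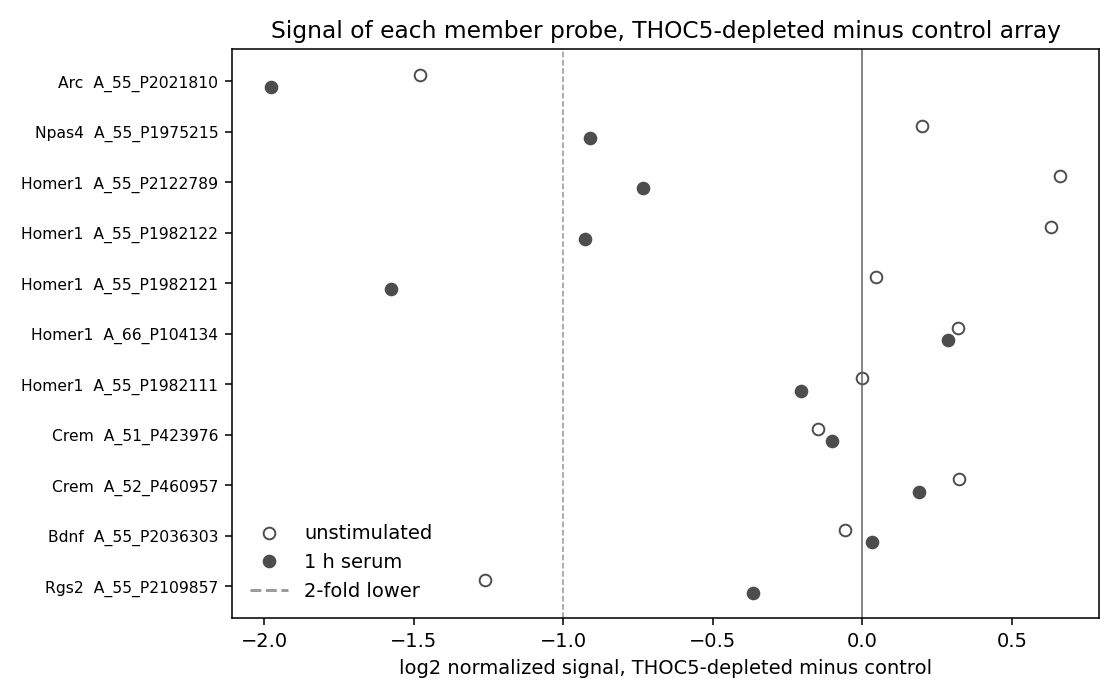
Log2 signal of each member probe in THOC5-depleted minus control cells after scaling between arrays (Aquantile), open for unstimulated and filled for 1 h of serum, with the dashed line at 2-fold lower. Arc lies at -1.48 and -1.98, the end of the short form of Homer1 at 0.05 and -1.58, and Rgs2 at -1.26 and -0.37; there is 1 array per condition and no error bar between arrays.

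Many other genes that follow activity in neurons also answered serum in these cells. Of 27 rapid activity-regulated genes, 24 were measured on each array, and 21 of these reached 2-fold with serum in control and 16 in THOC5-depleted cells, with median log2 ratios of 2.10 and 1.79, against 2.36% and 0.865% of all genes measured. The highest ratios in control cells were those of Fos (52.2, and 93.4 in THOC5-depleted cells), Egr2 (45.0 and 24.6), Nr4a1 (43.0 and 21.5), Fosb (19.8 and 19.1), Egr1 (15.4 and 15.7) and Junb (12.1 and 4.70), which are all transcription factors. Of these 24 genes 3 had a fold reduction of 2 or more, against 1.16% of all genes, and the median was 1.44. The members thus lay among genes whose ratios ranged from higher to more than 2-fold lower in THOC5-depleted cells.

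Of 20 activity-regulated effectors, such as secreted peptides, enzymes and kinases, 14 were measured in control cells and 6 of those reached 2-fold. On the THOC5-depleted array it was 4 of 13, and the shares over all genes were 2.36% and 0.865%. They were led by Ptgs2, a prostaglandin synthase (13.8 and 5.20), Penk, the enkephalin precursor (6.24 and 0.952), and Inhba, a subunit of activin (5.35 and 1.29), followed by the kinases Pim1 (3.80 and 2.09) and Plk3 (3.31 and 2.20) and the neuropeptide gene Tac1 (2.60, with a Cy3 signal not well above background in THOC5-depleted cells). The fold reductions of Ptgs2, Penk and Inhba were 2.65, 6.55 and 4.15. Penk and Inhba thus shared with the probe at the end of the short Homer1 form a ratio under 1.5 in THOC5-depleted cells.

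Few regulators of this program answered serum. Of 16 CREB, SRF and MEF2 regulators 14 were measured, and 1, Srf, reached 2-fold in control cells, with a ratio of 2.49 there and 1.89 on the THOC5-depleted array, against 2.36% and 0.865% of all genes. Scaled between arrays, Srf with serum was lower (log2 difference -0.92) and Creb1 without serum higher (1.28) in THOC5-depleted cells. None had a fold reduction of 2 or more, and their median log2 ratios were 0.15 and 0.05. Among the family members, receptors and binding partners of the 7 genes, 20 of 30 on the arrays were measured in control cells, and Rgs16, a relative of Rgs2, had the highest ratio there (8.94, and 4.57 on the THOC5-depleted array). Among cell markers, Aqp4 (2.12) was 2-fold or more higher with serum in control cells, and the fibroblast receptor Pdgfra (0.479) 2-fold or more lower.

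**Figure D5:**
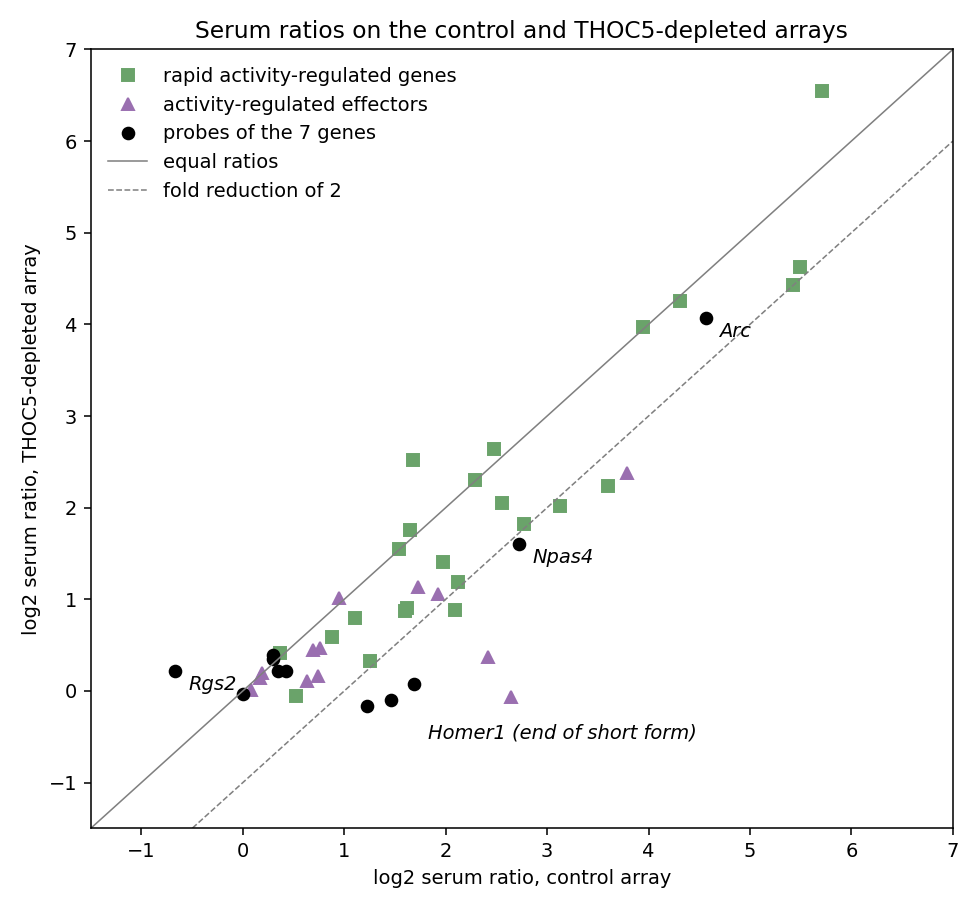
Log2 serum ratio on the control array (x axis) against that on the THOC5-depleted array (y axis) for the 11 member probes measured on both arrays (black), the rapid activity-regulated genes (green squares) and the activity-regulated effectors (purple triangles). The solid line marks equal ratios and the dashed line a fold reduction of 2: Arc lies between the lines at 4.56 and 4.07, and Npas4 and the S probes of Homer1 lie beyond the dashed line.

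Promoters were read from RefSeq for the members that the table holds (Npas4, Homer1, Bdnf and Rgs2, in GRCm38.p6, a later build than that of the probes), as the 250 bases before each start. They were searched on both strands for the full cAMP response element TGACGTCA, for its core TGACG, for the AP-1 site TGANTCA and for the CArG box of SRF. Homer1 has 2 windows in the table. The one with core matches and the Npas4 window are shown because the Npas4 probe and the S probes of Homer1 had fold reductions over 2, with the core, on whichever strand it lies, in capitals:
Homer1 promoter, 1 of 2 windows (chr13:93303507-93303756, plus strand): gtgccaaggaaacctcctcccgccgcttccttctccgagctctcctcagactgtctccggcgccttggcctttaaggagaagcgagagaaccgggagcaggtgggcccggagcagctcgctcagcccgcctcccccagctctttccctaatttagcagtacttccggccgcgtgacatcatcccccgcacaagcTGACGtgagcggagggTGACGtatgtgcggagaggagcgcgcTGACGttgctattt
Npas4 promoter (chr19:4989972-4990221, minus strand): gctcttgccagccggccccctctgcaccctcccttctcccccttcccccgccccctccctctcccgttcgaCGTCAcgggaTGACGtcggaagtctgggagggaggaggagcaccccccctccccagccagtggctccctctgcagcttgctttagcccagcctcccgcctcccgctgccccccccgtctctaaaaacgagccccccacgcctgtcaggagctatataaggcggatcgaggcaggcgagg

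The Homer1 window shown holds the core 3 times, at 56, 40 and 14 bases before the start, and the other Homer1 window (chr13:93307784-93308033) holds it 0 times. The Npas4 window holds it 2 times, at 179 and 169 bases before it. Of 32851 RefSeq promoter windows of this length, 17.8% hold the core at least 1 time, 3.90% at least 2 times and 0.688% at least 3 times. The Rgs2 window also holds it 2 times, at 185 and 67 bases before the start, although its control ratio was under 1. Of 7 Bdnf windows 1 holds the core 1 time, and 1 holds TGANTCA, which 6.75% of windows hold. The full element TGACGTCA (in 1.55% of all windows) and the CArG box (1.47%) were in none of the 11 member windows. These matches are a description of letters in a window and not of binding.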

How the data were processed

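RNA was measured on 2 dual-color arrays. Per the file headers, the authors deposited the output of Agilent Feature Extraction 10.7.3.1, in which a processed signal is an intensity corrected for background and for dye (linear and LOWESS) within its array, and the log ratio is the log10 of Cy5 over Cy3. Other deposited columns hold flags and probe annotation on mm9. The authors' table of the series gives that log10 ratio without its sign (0 of 44397 values are negative) and was used only as an alternative. Outlier spots (239 and 234) were dropped, and repeated spots were averaged as log2 values. Values counted where both channels were well above background, and the brightest probe stood for a gene. Levels between arrays were scaled by Aquantile (limma 3.58.1, R 4.3.3), and a dim control signal was replaced by the lowest one well above background. Calls were made at 2-fold. Python 3.11.15, numpy 2.4.6 and pandas 2.3.3 were used, and the calculation was tested on simulated data.

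The members, gene lists and tests were chosen with earlier results of these data known. Named genes are the 7 members, up to 6 genes per list with a control ratio of 2 or more or 0.5 or less, the 3 genes nearest to each raised member probe, Thoc5 and the markers that check the cell type. Some genes this rule names are not reported here. Columns not mapped to a sample number 0. The number of arrays limits the precision.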

Additional observations from a re-analysis of the deposited data

Results flagged for a closer look

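The log2 serum ratio of Rgs2 (A_55_P2109857) had opposite signs on the arrays, -0.67 in control and 0.22 in THOC5-depleted cells, a difference of -0.89. The same was seen at the upstream Homer1 probes listed for the short transcript, A_55_P2122789 (1.23 and -0.17, a difference of 1.39) and A_55_P1982122 (1.46 and -0.10, a difference of 1.56). With 1 array per condition none of these differences was tested, and the negative Homer1 values lie within their scanner errors of 0.21.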

How the results depend on the processing

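No paired analysis was possible because each condition has 1 array, and no array could be left out for the same reason. Arc and Npas4 were the members raised in control cells under the alternatives run, joined by Homer1 with the median over probes (3 genes). In THOC5-depleted cells 1 gene, Arc, passed at a 4-fold threshold. A fold reduction of 2 was reached by 1 gene, Npas4, and this count became 0 with normexp (offset 50) and loess, 0 at 4-fold, 0 with one spread of the log ratios for both arrays, 2 with the median over probes (Npas4 and Homer1) and 2 at 1.3-fold (Arc and Npas4). The count of genes lower with serum in THOC5-depleted cells was 1 and became 2 at 1.5-fold (Arc and Npas4). The cause was not tested. Member probes raised in control cells numbered 5, and 4 with normexp and loess, and those whose fold reduction reached 2 numbered 4, and 3 with normexp and loess or with one spread. These counts by probe, and the values of single probes under one spread, were chosen after seeing the data. Values of single probes moved by more than the scanner error 7 times with normexp and loess and 6 times with one spread. Keeping outlier spots could not move them, since no member spot was an outlier, nor could the series table, which holds the same ratio and took its sign from the scanner files. The log2 fold reduction of Arc ranged from -0.89 to 0.59, that of Npas4 from 0.43 to 1.11 and that of the end of the short Homer1 form from 1.17 to 1.62. Signals near background limit Nptx2, whose log2 ratio in THOC5-depleted cells was 0 with a floor of 50.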
